A study of Mus musculus with 6 samples.

Results

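The genes described here are 9 markers of mast cells (Tpsb2, Tpsab1, Mcpt4, Cma1, Cpa3, Hdc, Kit, Ms4a2 and Fcer1a), taken by symbol from the 24421 genes counted in each library of sciatic nerve, the large mixed nerve of the mouse leg. RNA was sequenced from nerves labelled YAP/TAZ-DBL-cKO (cKO, 3 libraries) and from nerves labelled YAP/TAZ-WT (WT, 3 libraries), and the design text counts 3 mice in each group, the WT mice being the controls. Yap1 and Wwtr1 encode YAP and TAZ, which drive transcription when Hippo signalling is low, and the series' title concerns their part in myelination by Schwann cells. The sources used here do not give strain, age, sex, the Cre driver, the deleted part of each gene or whether nerves were pooled.

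Mast cells are resident immune cells of connective tissue, and peripheral nerve holds them between its fibres and in its sheath. They mature in the tissue under the control of Kit, the receptor for stem cell factor, and carry the high-affinity receptor for immunoglobulin E, FceRI. Their granules store histamine and a set of proteases, the tryptases, the chymases and a carboxypeptidase, bound to heparin. In mice, the mast cells of connective tissue make Mcpt4, Cma1, Tpsb2 and Cpa3, and those of mucosa make Mcpt1 and Mcpt2.

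Gene counts totalled 24651262 to 32003497 in the cKO libraries and 41270894 to 47044158 in the WT libraries, so every WT library was the deeper. Levels are given as CPM, the gene's counts scaled to a common library size, after TMM scaling of library sizes, and differences as log2 fold changes of cKO over WT with their standard error (SE, n = 3 libraries per group). A gene was called changed at an edgeR adjusted p under 0.05 over all 14789 genes tested. Yap1 had 102.6 to 108.8 CPM in cKO libraries, against 120.4 to 123.7 CPM in WT libraries (edgeR adjusted p = 0.145), and Wwtr1 rose 1.32-fold (edgeR adjusted p = 0.0208), so whole-gene counts do not check the labels and each direction rests on them. The nerve's own cells were present in all libraries: the 10 Schwann cell markers summed to 21160 to 33550 CPM in cKO nerves and to 78650 to 111000 CPM in WT nerves.

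Transcripts of mast cell granule proteases stood higher on average in the cKO nerves. All 9 genes had at least 1 count in every library, and 7 passed the filter on low counts. Of these 7, 2 were called higher (the tryptase Tpsb2 and the chymase Mcpt4) and 0 lower, against 4.77% of all tested genes called higher and 6.17% called lower. The 7 log2 fold changes lay between 0.41 and 1.16 with a median of 0.88, beside a median of 0.022 over all genes. Without cKO 1 the median of the 7 was 0.586. An unadjusted edgeR p under 0.05 was reached by 6 of the 7, all higher, as it was by 12.1% of all genes in that direction. In bulk nerve, a larger number of mast cells and more RNA per mast cell cannot be told apart.

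Tpsb2, a tryptase stored in granules as a tetramer, had 60.7, 29.6 and 37.2 CPM in cKO 1, 2 and 3, and 16.6, 21.0 and 21.0 CPM in WT 1, 2 and 3. Every cKO library lay above every WT library, an arrangement that 15.3% of all tested genes shared. The gene (mm10 chromosome 17, 25366305 to 25369098, plus strand) rose 2.18-fold (log2 1.13 ± 0.24, edgeR adjusted p = 0.018). The call was lost without cKO 3 (edgeR adjusted p = 0.0527) and without WT 1 (edgeR adjusted p = 0.0769).

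Mcpt4, a chymase of connective tissue mast cells, had 40.3, 18.9 and 29.6 CPM in the cKO libraries and 12.96, 14.55 and 17.87 CPM in the WT libraries. The groups did not overlap, but the lowest cKO library (cKO 2) was close to the highest WT library (WT 3). The gene (chromosome 14, 56059629 to 56062313, minus strand) rose 1.96-fold (log2 0.97 ± 0.25, edgeR adjusted p = 0.0387). Its call was lost without cKO 1, cKO 3, WT 1 or WT 2 (edgeR adjusted p = 0.103, 0.126, 0.14 and 0.111).

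Cma1, the second chymase (chromosome 14, 55941451 to 55944675, minus strand), had 63.8, 28.7 and 48.3 CPM in cKO nerves and 22.0, 25.8 and 29.2 CPM in WT nerves. Here cKO 2 lay just under WT 3, so the groups overlapped by 1 library. The log2 fold change of 0.87 ± 0.25 did not pass (edgeR adjusted p = 0.057). It passed without cKO 2 (edgeR adjusted p = 0.00696) and in none of the other fits that left out 1 library (edgeR adjusted p = 0.0582 to 0.191, with a log2 fold change of 0.59 without cKO 1).

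Cpa3, the granule carboxypeptidase (chromosome 3, 20215620 to 20242181, minus strand), had 53.3, 22.1 and 33.0 CPM in cKO nerves and 16.8, 19.8 and 22.4 CPM in WT nerves. Again only cKO 2 fell inside the WT range. Its difference, 0.88 ± 0.27 on the log2 scale, did not pass (edgeR adjusted p = 0.0777). Leaving out cKO 2 gave an edgeR adjusted p of 0.0192 and leaving out any other library gave 0.0791 to 0.235, with a log2 fold change of 0.49 without cKO 1.

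Tpsab1, a second tryptase gene, was close to the limit of detection, with 13, 2 and 11 counts in cKO 1, 2 and 3 and 4, 1 and 3 counts in WT 1, 2 and 3. It did not pass the filter. Pooled over libraries it stood at 0.287 CPM in cKO nerves (95% exact Poisson interval 0.187 to 0.42) and at 0.0635 CPM in WT nerves (0.0274 to 0.125), intervals that cover counting error only. Over the libraries, the exact two-sided permutation test gave p = 0.2, and the smallest p that 3 against 3 allows is 0.1. Mouse strains are known to differ at this gene: C57BL/6 mice carry a splice-site change and lack the protease, and whether that applies here was not tested.

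**Figure D1:**
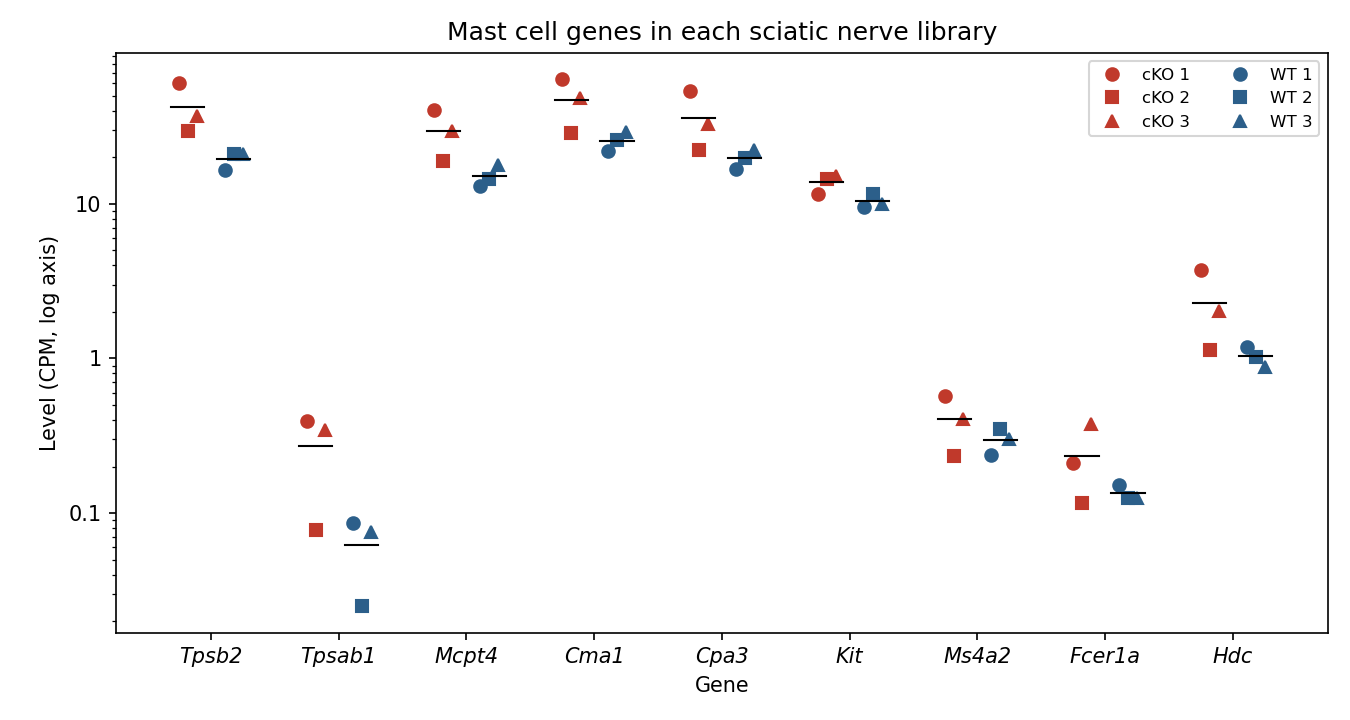
Level of each mast cell gene in CPM (log axis) in the 3 cKO libraries (red, left) and the 3 WT libraries (blue, right), with symbols for replicates and a bar at each group's mean. Tpsb2 and Mcpt4 separate the groups, and cKO 1 is the highest of the 6 libraries for 7 of the 9 genes.

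Hdc encodes histidine decarboxylase, the enzyme that makes histamine. It had 3.71, 1.13 and 2.04 CPM in cKO nerves and 1.19, 1.02 and 0.882 CPM in WT nerves. Its level in cKO 2 lay within the WT range and that in cKO 1 was 3.59 times the WT mean. The log2 fold change was the highest among the 7 tested genes and did not pass (1.16 ± 0.43, edgeR adjusted p = 0.133; without cKO 1 it was 0.62, edgeR adjusted p = 0.417).

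The receptor genes among the 9 are Kit and the FceRI chains Ms4a2 and Fcer1a, and none of them was called. Fcer1g, the gamma chain of FceRI, is not among the 9. It had 29.8 to 41.9 CPM in cKO nerves and 26.6 to 40.1 CPM in WT nerves and was not called (log2 0.19 ± 0.18, edgeR adjusted p = 0.603). Kit had 11.6, 14.6 and 15.2 CPM in cKO nerves and 9.59, 11.6 and 9.98 CPM in WT nerves, with cKO 1, the highest library for the proteases, at the level of WT 2 (log2 0.41 ± 0.15, edgeR adjusted p = 0.137). Ms4a2, the beta chain of FceRI, had 19, 6 and 13 counts in cKO nerves and 11, 14 and 12 counts in WT nerves, and the groups overlapped (log2 0.47 ± 0.50, edgeR adjusted p = 0.64). Fcer1a, the chain of FceRI that binds immunoglobulin E, had 7, 3 and 12 counts in cKO nerves and 7, 5 and 5 counts in WT nerves and did not pass the filter. Pooled, it stood at 0.243 CPM in cKO nerves (95% exact Poisson interval 0.152 to 0.367) and at 0.135 CPM in WT nerves (0.0787 to 0.216), with an exact two-sided permutation p of 0.4.

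Per kilobase of exon, Cma1 was the most abundant of the 9 in every library, at 43.1 ± 16.1 RPKM in cKO nerves and 23.5 ± 3.29 RPKM in WT nerves (SD, n = 3). Tpsb2, Mcpt4 and Cpa3 followed at 26.7 ± 10.2, 26.7 ± 9.65 and 23.8 ± 10.4 RPKM in cKO nerves and at 12.2 ± 1.60, 13.7 ± 2.26 and 13 ± 1.84 RPKM in WT nerves. The ranges of these 3 genes overlapped, while within each of the 6 libraries Mcpt4 stood above Cpa3. Kit came next with 1.55 ± 0.218 RPKM in cKO nerves and 1.17 ± 0.121 RPKM in WT nerves. Hdc, Fcer1a and Ms4a2 lay below it at 0.359 ± 0.205, 0.235 ± 0.132 and 0.144 ± 0.0603 RPKM in cKO nerves and 0.162 ± 0.0241, 0.134 ± 0.0150 and 0.106 ± 0.0200 RPKM in WT nerves. Tpsab1 was last, at 0.130 ± 0.0810 RPKM in cKO nerves and 0.0298 ± 0.0157 RPKM in WT nerves. Thus the chymases, the carboxypeptidase and 1 of the 2 tryptases made up nearly all of the signal: the 5 protease genes held 86.1% to 93.1% of the summed CPM of the 9 in cKO nerves and 86.0% to 88.9% in WT nerves.

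In the level of the abundant proteases the cKO nerves were more spread than the WT nerves. The summed level of the 9 genes was 235, 115 and 166 CPM in cKO 1, 2 and 3, which is 2.55, 1.26 and 1.81 times the WT mean, and 79.6, 94.2 and 102 CPM in WT 1, 2 and 3. The order cKO 1, then cKO 3, then cKO 2 held in 6 of the 7 tested genes, and Kit, with its highest level in cKO 3 and its lowest in cKO 1, was the exception. Within the cKO group the highest library exceeded the lowest 2.05-fold for Tpsb2, 2.13-fold for Mcpt4, 2.22-fold for Cma1 and 2.41-fold for Cpa3. Within the WT group the same ratios were 1.27, 1.38, 1.33 and 1.33.

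**Figure D2:**
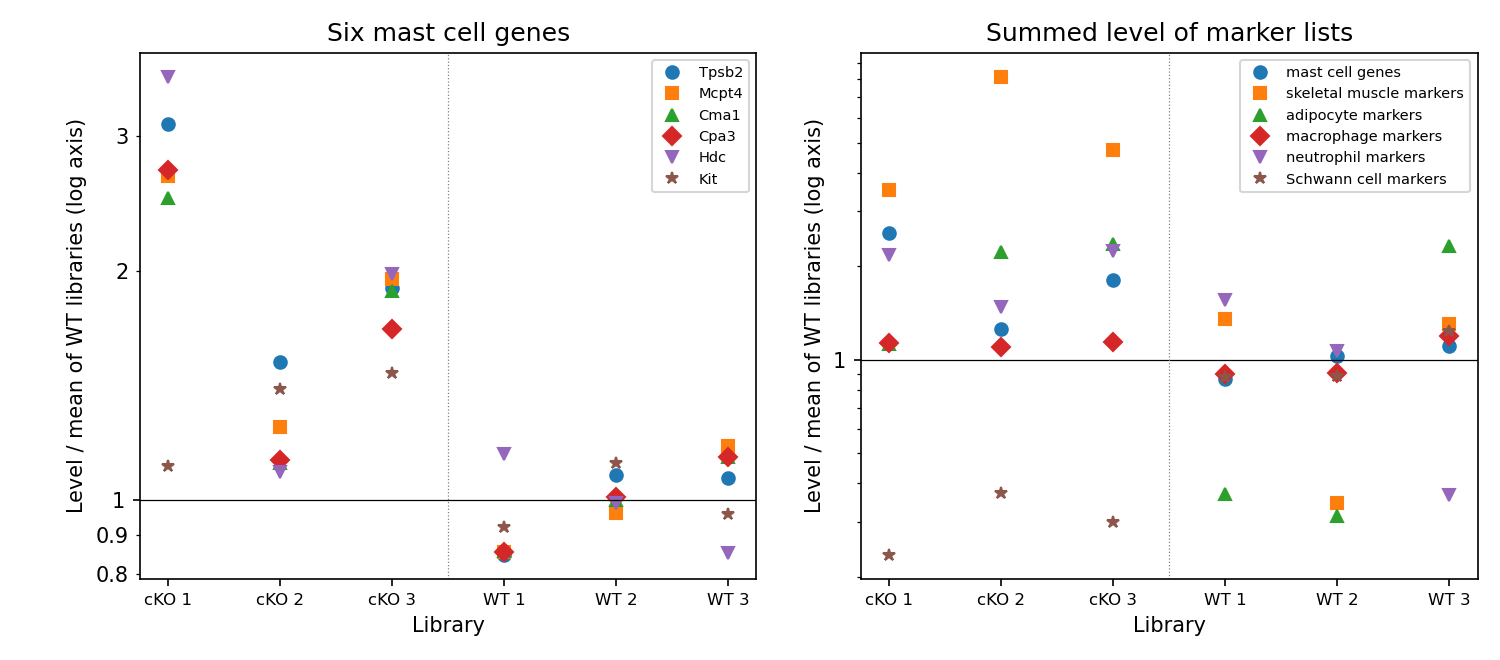
Level in each library divided by the mean of the WT libraries (log axes), for 6 mast cell genes (left) and for the summed CPM of marker lists (right), with cKO libraries before WT libraries. The proteases and Hdc were highest in cKO 1 and lowest among cKO in cKO 2, while the muscle sum was highest in cKO 2.

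The chymases Mcpt4 and Cma1 kept nearly fixed proportions to Cpa3 across all 6 libraries. Relative to Cpa3, Mcpt4 ranged from 0.757 to 0.895 in cKO nerves and from 0.737 to 0.798 in WT nerves, and Cma1 from 1.20 to 1.46 and from 1.30 to 1.31 in the same groups. Over all libraries each of these ratios varied 1.22-fold, while the level of Cpa3 itself varied 3.17-fold. Tpsb2 was 1.14, 1.34 and 1.13 times Cpa3 in cKO 1, 2 and 3 and 0.986, 1.06 and 0.937 times Cpa3 in WT 1, 2 and 3. The lowest cKO ratio, 1.13, lay close to the highest WT ratio, 1.06, and the difference in this ratio was not tested. The Tpsab1 ratio, from 1 to 13 counts a library, varied 8.27-fold. Kit was 0.217, 0.658 and 0.461 times Cpa3 in cKO 1, 2 and 3 and 0.57, 0.589 and 0.446 times Cpa3 in WT 1, 2 and 3. That ratio varied 3.03-fold, with cKO 1 below, cKO 2 above and cKO 3 within the WT range. These ratios compare CPM, not molecules, since the genes differ in length.

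**Figure D3:**
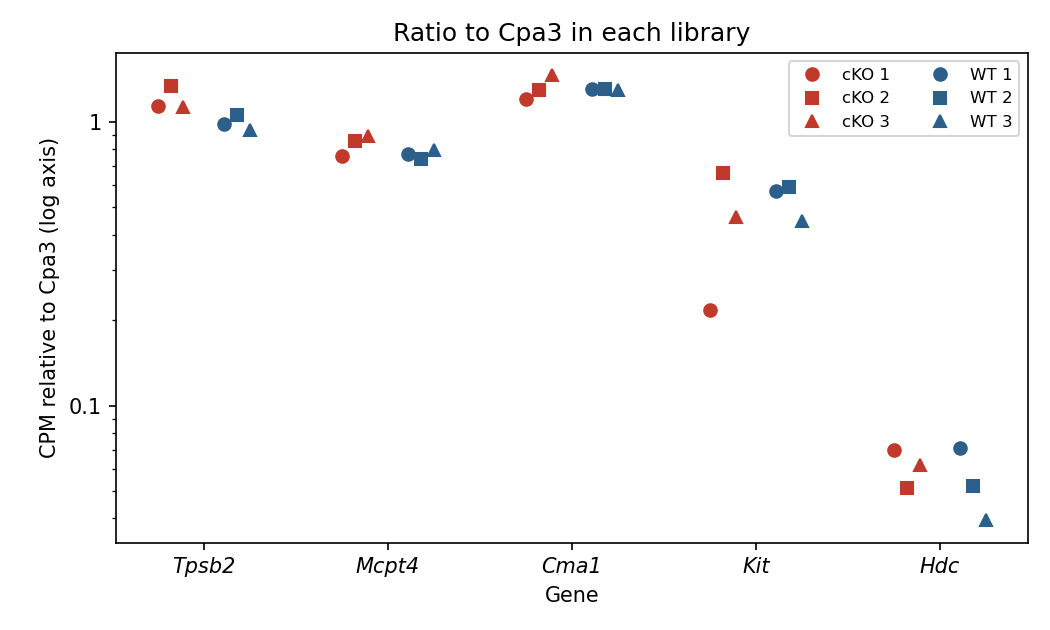
CPM of 5 mast cell genes divided by the CPM of Cpa3 in the same library (log axis), with cKO libraries in red on the left and WT libraries in blue on the right. Mcpt4 and Cma1 stay within a 1.22-fold range, and Kit spans a 3.03-fold range with cKO 1 at the bottom.

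The DNA just before the start sites of 3 proteases and of Kit is shown as a description. The RefSeq promoter table (GRCm38.p6, the assembly of mm10) held 7 of the 9 genes, all but Tpsb2 and Tpsab1. Shown 5′ to 3′ along the gene are the 250 bases before the start of Mcpt4 (chr14:56062311-56062560, minus strand), Cma1 (chr14:55944676-55944925, minus strand), Cpa3 (chr3:20242182-20242431, minus strand) and the first listed start of Kit (chr5:75574737-75574986, plus strand). Capitals mark matches to letters that GATA factors can bind, searched as AGATAA or AGATAG or TGATAA or TGATAG on both strands. Gata2, a transcription factor needed for mast cells, is one of these factors.
Mcpt4: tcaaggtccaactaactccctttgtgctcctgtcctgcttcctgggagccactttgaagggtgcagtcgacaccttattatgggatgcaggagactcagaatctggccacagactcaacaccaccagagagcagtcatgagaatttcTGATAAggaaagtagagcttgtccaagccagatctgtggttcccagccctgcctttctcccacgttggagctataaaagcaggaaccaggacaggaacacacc
Cma1: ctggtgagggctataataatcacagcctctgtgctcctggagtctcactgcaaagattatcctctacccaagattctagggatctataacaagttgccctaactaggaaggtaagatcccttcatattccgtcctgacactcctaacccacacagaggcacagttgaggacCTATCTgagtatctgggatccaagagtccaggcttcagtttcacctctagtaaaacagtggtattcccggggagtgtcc
Cpa3: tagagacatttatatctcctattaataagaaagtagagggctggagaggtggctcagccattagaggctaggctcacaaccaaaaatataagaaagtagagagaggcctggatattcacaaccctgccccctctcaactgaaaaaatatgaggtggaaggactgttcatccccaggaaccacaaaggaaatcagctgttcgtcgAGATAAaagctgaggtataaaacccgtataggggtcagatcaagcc
Kit: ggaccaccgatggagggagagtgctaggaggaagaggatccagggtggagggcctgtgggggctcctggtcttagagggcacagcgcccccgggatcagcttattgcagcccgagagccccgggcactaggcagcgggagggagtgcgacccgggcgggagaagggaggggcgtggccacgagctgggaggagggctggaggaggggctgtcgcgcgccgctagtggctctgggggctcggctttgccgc
The match began 103 bases before the start in Mcpt4, 79 bases before it in Cma1, where it lies on the other strand, and 46 bases before it in Cpa3. A match was found in 6 of the 7 genes, all but Kit, and in 26.5% of 32851 promoters of the same length. The Kit stretch differed in base composition, with 70.8% G and C, against 51.2%, 48.0% and 44.4% in Mcpt4, Cma1 and Cpa3. Searched on both strands for the E-box forms CACGTG or CATGTG, which MITF binds, 1 of the 7 held a match (Fcer1a), beside 17.6% of all promoters. These matches describe letters and show no binding, and whether they bear on the levels of the genes was not tested.

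The 4 abundant proteases lie at 3 places in the genome, and none of their tested neighbours was called by edgeR. Mcpt4 and Cma1 lie in the chymase cluster of chromosome 14 with Mcpt1, Mcpt2, Mcpt9, Mcpt8, Cma2 and Ctsg. Mcpt1, Mcpt2 and Mcpt9 had 0 counts in all libraries, where 3 counts would be 0.0937 to 0.122 CPM in cKO nerves and 0.0638 to 0.0727 CPM in WT nerves, so the mucosal proteases were not detected at this depth. Within 100 kb of Mcpt4, Cma1 and Cpa3, the neighbours tested numbered 2, 4 and 4, and 0 of them were called by edgeR in either direction, while 1 (Ctsg) had an unadjusted edgeR p under 0.05. Of the tested neighbours of Tpsb2 on chromosome 17, Cacna1h, a calcium channel gene, stood 0.64 higher in cKO nerves on the log2 scale (edgeR adjusted p = 0.0531), and Prss34, a protease known from basophils and mast cells, stood 1.42 ± 0.59 higher (edgeR adjusted p = 0.176). Prss34 had 5.28, 1.05 and 1.73 CPM in cKO nerves and 0.584, 1.25 and 1.21 CPM in WT nerves, with cKO 1 the highest as for Tpsb2. No stretch of 50 bases of a Tpsb2 transcript was found in a transcript of Tpsab1 or any other gene in GENCODE M21, while 5.48% of such stretches of Mcpt4 occurred in Cma2 or Mcpt9, both at or near 0 here, and 5.38% of those of Cma1 in the predicted gene Gm48934.

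Other genes of mast cell biology were read from 7 lists of 84 distinct genes, of which 65 were tested. Of these 65, 3 were called higher and 1 lower, against 4.77% of all tested genes called higher and 6.17% called lower. The lists thus held no excess of calls at the adjusted threshold. The median log2 fold change of the 65 was 0.28, beside 0.022 over all genes. Genes with an unadjusted edgeR p under 0.05 are counted list by list below, and all of them but Zeb2 were higher. Of all tested genes, 12.1% were higher at that unadjusted threshold. Among granule proteases and granule matrix 0 of 6 tested were called (2 had an unadjusted edgeR p under 0.05): Cd63, a granule membrane protein, had 409.1 to 512.4 CPM in cKO nerves and 362.3 to 405.3 CPM in WT nerves (log2 0.28 ± 0.11, edgeR adjusted p = 0.137), and Ctsg, cathepsin G, had 1.54, 0.545 and 0.911 CPM in cKO nerves and 0.627, 0.05 and 0.0504 CPM in WT nerves (edgeR adjusted p = 0.19). Among other receptors 0 of 13 were called (3 had an unadjusted edgeR p under 0.05), with the cytokine receptor chains Csf2rb at log2 0.56 ± 0.21 (edgeR adjusted p = 0.129) and Il3ra at log2 0.32 ± 0.13 (edgeR adjusted p = 0.161). Mrgprb2, the receptor through which basic peptides activate mouse mast cells, was chosen after its values were seen: it had 1.36, 0.273 and 1.10 CPM in cKO nerves and 0.281, 0.800 and 0.554 CPM in WT nerves and overlapped widely.

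Mediator synthesis held 2 of the 3 higher calls among its 8 tested genes (3 had an unadjusted edgeR p under 0.05). Ddc, the decarboxylase that makes dopamine and serotonin, had 8.93, 11.3 and 7.44 CPM in cKO nerves and 3.72, 2.55 and 3.86 CPM in WT nerves (log2 1.45 ± 0.23, edgeR adjusted p = 0.00565). With the muscle level in the model its log2 fold change was 0.75 and the call was lost (edgeR adjusted p = 0.516). In that fit the other called genes of these lists, Pla2g4a, Fyn and Zeb2, also lost their calls (edgeR adjusted p = 0.198, 0.486 and 0.573). Their log2 fold changes in it were 1.18, 0.39 and -0.37. Pla2g4a, the phospholipase that releases arachidonic acid, had 15.95, 10.71 and 13 CPM in cKO nerves and 7.59, 6.68 and 6.17 CPM in WT nerves (log2 0.96 ± 0.18, edgeR adjusted p = 0.0108, and 0.0515 without cKO 3). Both genes are also used by other cells, and Ddc was highest in cKO 2, where the proteases were lowest among the cKO nerves. In FceRI and Kit signalling 1 of 14 was called higher, the kinase Fyn, and 4 had an unadjusted edgeR p under 0.05. Fyn stood at 404.1 to 424.8 CPM in cKO nerves and 311.3 to 350.4 CPM in WT nerves (log2 0.32 ± 0.09, edgeR adjusted p = 0.0486). That call was lost without any 1 of the 6 libraries (edgeR adjusted p = 0.0624 to 0.194), and Sh2b2, an adaptor of receptor kinases, did not pass (log2 0.96 ± 0.30, edgeR adjusted p = 0.077).

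Of 10 transcription factors 1 was lower and 0 higher, and 3 had an unadjusted edgeR p under 0.05. Zeb2, which Schwann cells also use, had 280.6 to 312.7 CPM in cKO nerves and 357.8 to 413.1 CPM in WT nerves (log2 -0.40 ± 0.10, edgeR adjusted p = 0.0294), a call lost with total-count scaling (edgeR adjusted p = 0.0931) and without cKO 1, cKO 2, cKO 3 or WT 2 (edgeR adjusted p = 0.0619 to 0.109). Stat5a, which acts downstream of Kit and cytokine receptors, differed by 0.55 ± 0.17 on the log2 scale (edgeR adjusted p = 0.0765). Among growth factors and attractants 0 of 10 were called (2 had an unadjusted edgeR p under 0.05), including the chemokines Cx3cl1 (log2 0.58 ± 0.21, edgeR adjusted p = 0.125) and Ccl5 (1.91 ± 0.72, edgeR adjusted p = 0.134). Kitl, the ligand of Kit, chosen after its values were seen, had 44.5, 39.4 and 41.9 CPM in cKO nerves and 42.2, 48.4 and 59.1 CPM in WT nerves (log2 -0.25 ± 0.13, edgeR adjusted p = 0.272). Of 4 tested genes for sensing or clearing histamine 0 were called and 0 had an unadjusted edgeR p under 0.05, with Aldh2 at log2 0.13 ± 0.12 and Hnmt at -0.21 ± 0.45.

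**Figure D4:**
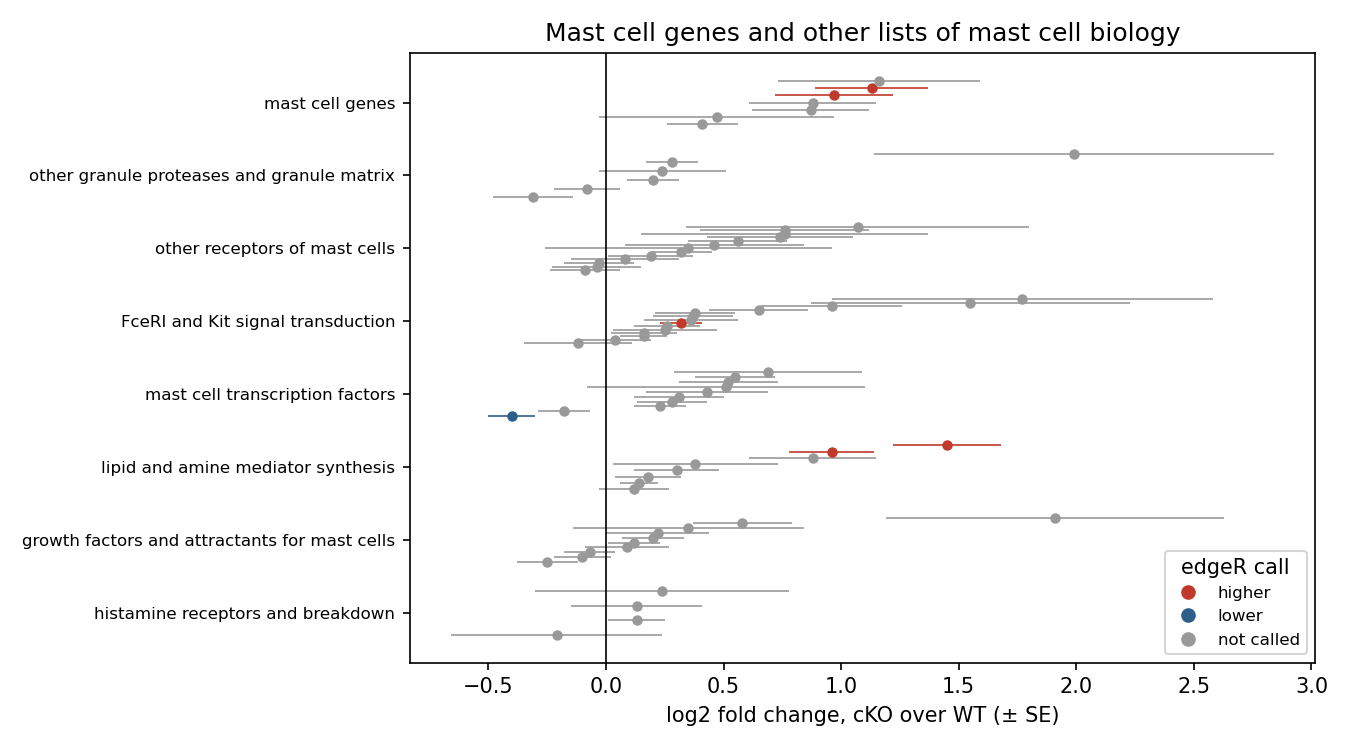
Log2 fold change of cKO over WT with its SE for the 7 tested mast cell genes (top) and for the tested genes of 7 other lists (below), coloured by edgeR call. The 7 mast cell genes lie between 0.41 and 1.16, and the other lists are spread around a median of 0.28 with 3 genes higher and 1 lower.

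Other cell types also differed between the groups. Skeletal muscle transcripts summed to 3458, 7992 and 4650 CPM in cKO 1, 2 and 3 and to 1332, 340.2 and 1278 CPM in WT 1, 2 and 3, and 8 of the 10 muscle markers were higher, among them Tnnt3 and Acta1 (log2 2.38 ± 0.44 and 2.42 ± 0.46). The muscle sum was thus highest in cKO 2, where the mast cell genes were lowest among the cKO nerves. In a fit that included the muscle level, the mast cell genes had a median log2 fold change of 1.43 and 0 were called by edgeR, with Tpsb2 at 1.77 ± 0.37 (edgeR adjusted p = 0.0724). Every cKO muscle sum lay above every WT sum, so that fit can separate the muscle level from the group only in part. Adipocyte markers summed to 170.6, 341.2 and 359.5 CPM in cKO nerves and to 56.5, 48.0 and 354.1 CPM in WT nerves with 0 of 7 called and 0 at an unadjusted edgeR p under 0.05, and with that level as a covariate Tpsb2 kept its call and Mcpt4 lost it (edgeR adjusted p = 0.104).

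Markers of other blood-derived cells did not move as one. B cell markers were higher for 3 of 4 tested, including Cd79a (log2 2.61 ± 0.37), with sums of 9.58 to 14.1 CPM in cKO nerves and 3.12 to 3.43 CPM in WT nerves. Of 3 tested markers of T and NK cells 1 was higher (Cd3g, log2 3.74 ± 0.80). That fold change rests on few counts: 20, 58 and 16 in cKO 1, 2 and 3 and 4, 1 and 5 in WT 1, 2 and 3. Siglecf, the 1 eosinophil marker tested, was higher (log2 1.54 ± 0.26, edgeR adjusted p = 0.00737), and the eosinophil list of 7 summed to 6.82 to 8.62 CPM in cKO nerves and 1.74 to 3.53 CPM in WT nerves. Its granule genes were near 0: in cKO 1, 2 and 3 and then WT 1, 2 and 3, Epx had 0, 3 and 0 counts and 0, 7 and 0 counts, Prg2 had 4, 1 and 7 counts and 6, 7 and 2 counts, and Prg3 had 0, 5 and 8 counts and 0, 0 and 0 counts. Ccr3, an eosinophil chemokine receptor, had 5, 1 and 2 counts in cKO nerves and 0, 0 and 1 counts in WT nerves, and Ear6 had 0 counts in all libraries. Neutrophil markers summed to 25.7 to 38.9 CPM in cKO nerves and 6.38 to 27.2 CPM in WT nerves with 0 of 8 called by edgeR. All 8 had a positive log2 fold change, between 0.90 and 1.43 with a median of 0.96, beside 0.88 for the mast cell genes. Macrophage markers summed to 587.5 to 608.6 CPM in cKO nerves and 482.7 to 640.4 CPM in WT nerves with 0 of 10 called. In the neutrophil and the macrophage list, 2 markers each had an unadjusted edgeR p under 0.05. Basophil markers summed to 9.93 to 15.5 CPM in cKO nerves and 7.29 to 12.2 CPM in WT nerves, with 0 of 4 called by edgeR and 1 at an unadjusted p under 0.05. Mcpt8, which marks basophils and was not tested, had 0.181, 0.156 and 0.283 CPM in cKO nerves and 0.0433, 0.1 and 0.0252 CPM in WT nerves. Every cKO library lay above every WT library, as for 15.3% of all tested genes. These levels came from at most 9 counts each, and cKO 2 and WT 2 both had 4 counts. Of melanocyte markers, which mark another cell that uses Kit, 0 of 3 were called, and Pmel stood at 8.96 to 13.5 CPM in cKO nerves and 11.2 to 17.8 CPM in WT nerves. Of the remaining lists edgeR called 6 of 10 Schwann cell markers lower, 2 of 8 fibroblast markers higher, 1 of 6 perineurial markers lower, 1 of 8 early response and stress genes higher and 1 lower, and 0 of 8 endothelial and 0 of 4 erythroid markers, while 3 endothelial and 0 erythroid markers passed an unadjusted edgeR p of 0.05. The part of muscle, fat or these other cells in the mast cell result was not tested beyond the covariate fits.

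The genes whose pattern over the 6 libraries was most like that of the mast cell genes were ranked by the root mean square difference between centred log2 CPM and the mean profile of the 6 tested mast cell genes whose mean log2 CPM was at least 0. Among 13311 genes Penk, the precursor of enkephalin peptides, came first (0.102 log2 units), followed by Tmem196 (0.108), Cxcr2, a chemokine receptor of neutrophils (0.127), Vstm5 (0.129) and Fcna, the lectin ficolin A (0.15). By the same measure Cma1, Mcpt4, Cpa3 and Tpsb2 lay at 0.089, 0.102, 0.108 and 0.152 and Kit at 0.444, although these values include the genes' own part in the profile. Penk had 38.4, 19.2 and 29.2 CPM in cKO nerves and 15.5, 14.0 and 15.8 CPM in WT nerves. The profile holds the difference between the groups, so genes higher in cKO nerves rank near the top.

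Scaling affected how many genes were called. Total counts moved the median difference over all genes to 0.146 (log2), against 0.022 with TMM, and the share of higher genes among all calls to 67.7%, against 43.6% with TMM. The 4 abundant proteases were all called higher with total counts (edgeR adjusted p of 0.0291 for Cma1 and 0.04 for Cpa3), with log2 fold changes of 1 for Cma1 and 1.01 for Cpa3 that include the shift of the median of all genes.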

How the data were processed

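Total RNA of sciatic nerve was extracted with Trizol and RNeasy and sequenced from Illumina TruSeq libraries, per the labels' protocols. Each deposited file lists, for 1 library, the authors' unnormalized read counts by gene symbol; the submitters' processing notes name TopHat2 2.0.13, HTSeq and mm10. The sources used here do not give the annotation, strand setting or read length, so overlapping or antisense genes cannot be told apart. HTSeq's closing lines (12.07% to 14.26% of counts for reads in no gene, 1.635% to 2.818% ambiguous) were left out. Counts were filtered with filterByExpr (minimum count 10), scaled by TMM and tested with edgeR 4.0.16 (quasi-likelihood F test, R 4.3.3, group as the only term, all 6 libraries), with Benjamini-Hochberg adjustment over 14789 genes; the SE was derived from each log2 fold change and its F statistic (absolute value over root F). The procedure was tested on data simulated with the same relative spread between libraries for every gene, which was not matched to the spread of the mast cell genes. Positions and exon lengths come from GENCODE M21. DESeq2 1.42.0 and limma 3.58.1 (limma-voom) were alternatives. The members and lists were chosen with earlier results of these data known. Besides the 9 genes, the text names called list genes up to 4 per list of mast cell biology (the next by p where fewer than 2 were called), up to 2 per list of other cell types, and the 5 nearest profiles; for some of these lists only sums and counts are given. A gene that this rule would name is not reported here. Other genes were named after their values were seen.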

Additional observations from a re-analysis of the deposited data

How the results depend on the processing

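Each of the 7 tested mast cell genes kept a positive log2 fold change in every alternative in which it was tested, with 0.77 to 1.77 for Tpsb2, 0.68 to 1.43 for Mcpt4, 0.59 to 1.43 for Cma1, 0.49 to 1.5 for Cpa3, 0.32 to 0.53 for Kit, 0.13 to 1.38 for Ms4a2 and 0.62 to 1.92 for Hdc. Tpsb2 was called in 14 of 17 alternatives, Mcpt4 in 10, Cma1 and Cpa3 in 4 each and Kit and Hdc in 0. The number called higher was 4 with DESeq2's own test, with no filter on low counts and with total counts, 1 with the replicate block and with the adipocyte covariate, 0 with the muscle covariate, and 0 to 4 when 1 library was left out. The median log2 fold change was 1.43 with the muscle covariate and 0.586 to 1.17 when 1 library was left out, lowest without cKO 1. Over all genes, total counts gave 1273 higher and 606 lower, the muscle covariate 31 and 151, and the replicate block 461 higher; leaving out 1 library gave 276 to 1075 higher and 459 to 1120 lower. Of the other mast cell lists, DESeq2 called 7 higher, total counts 8 higher and 0 lower, the muscle covariate 0 in either direction, the replicate block 0 lower, and the fits without 1 library 1 to 6 higher and 0 to 1 lower. The cause of these shifts was not tested. Whether the replicate numbers pair the libraries is not known. Deviations of libraries with the same number correlated at -0.207, -0.122 and 0.072, and those with unlike numbers at -0.1 to 0.222. With 3 libraries per group these correlations cannot exclude a shared batch. Depth limits the precision for Tpsab1, Fcer1a and Ms4a2, which had at most 19 counts in any library.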
